A study of Mus musculus with 24 samples.

Results

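CD11c+ and CD11c- adipose tissue macrophages (ATM) sorted from mice that had been obese and had then lost weight were compared with each other, 3 arrays of WL CD11c+ ATM against 2 arrays of WL CD11c- ATM, 5 of the 24 arrays in the series. The arrays were chosen by the group named in their titles and by no measured value. All mice were male C57Bl/6, with no altered allele named in the labels, and all cells came from collagenase-digested gonadal fat. The weight loss (WL) mice had eaten a high fat diet (HFD) with 60% fat for 12 weeks and were then taken off it for 8 weeks. The HFD CD11c+ and HFD CD11c- ATM, 3 arrays each, came from mice kept on that diet and are used here for comparison, and 2 arrays of CD11c- ATM from mice on normal diet (ND) gave a lean level. The labels give neither the animals' ages nor how long the HFD groups were fed. Each HFD sample was a pool of 3 to 4 mice, and the 2 ND macrophage samples were pools of cells from 4 mice. No source used here says how many mice made up a WL sample, so the spread between WL samples may be technical. The p-values measure a spread between samples that is pooled over all 9 groups of the series, most of which are not WL groups. The labels name no marker of the sort besides CD11c.

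CD11c is the integrin alpha X chain encoded by Itgax. In mouse fat, macrophages that carry it accumulate in obesity around dying adipocytes, take up lipid and enlarge their lysosomes, while CD11c- macrophages include long-lived resident cells that carry scavenger receptors and lectins. Mast cells, tissue cells armed with IgE receptors and with granules of histamine, serotonin and proteases, also live in the stroma of fat.

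Values are deposited log2 expression values, and a difference is CD11c+ minus CD11c- on that log2 scale, given with its standard error. A gene that rose or fell was higher or lower in CD11c+ than in CD11c- ATM, which is not a change over time. Array medians lay between 2.96 and 3.15, and a gene was tested if at least 2 of the 24 arrays lay above their own median, which left 15496 genes. Tests were made with limma across all 24 arrays, and a gene was called at a Benjamini-Hochberg adjusted p under 0.05. WL CD11c+ replicate 1 stood apart from the other WL arrays, with a mean correlation of 0.882 with its own group against 0.913 and 0.917 for the other two CD11c+ arrays, and with the lowest quality weight of all arrays, 0.274. The 2 WL CD11c- arrays correlated at 0.918 with each other, but replicate 2 correlated at 0.923 with WL CD11c+ replicate 3. Both correlated more highly with HFD CD11c- replicate 3, at 0.920 and 0.929. Whole profiles thus did not cleanly separate the 2 WL sorts. The median within-group SD of a gene was 0.39 in WL CD11c+ ATM and 0.30 in WL CD11c- ATM, against 0.21 to 0.33 in the other groups. No array was a copy of another. Where a WL CD11c- array is left out below, that group keeps a single array. Its mean is then that array's value, and no spread comes from that group, so such calls are weak support.

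Both WL sorts carried macrophage RNA at a high level. All 14 macrophage identity genes with a probe row lay above the array median on all 5 arrays, and 0 of them were called between the sorts, with a median difference of -0.01. Adgre1, which encodes the macrophage marker F4/80, measured 9.43, 10.17 and 10.16 in CD11c+ ATM and 9.64 and 9.92 in CD11c- ATM. Cd68, a lysosomal membrane protein of macrophages, measured 11.21, 11.44 and 11.37 against 11.09 and 11.13. The groups overlapped for Adgre1, while for Cd68 the CD11c+ arrays lay above the CD11c- arrays by less than the standard error of 0.55.

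Itgax, the gene of the sorted marker, measured 8.26, 9.19 and 9.02 in WL CD11c+ ATM and 5.94 and 7.10 in WL CD11c- ATM. Every CD11c+ array lay above both CD11c- arrays. The difference of 2.30 ± 0.67 did not pass the test across all genes (limma adjusted p = 0.0925), and the same contrast on the HFD was 2.40, with 8.53 in HFD CD11c+ ATM and 6.13 in HFD CD11c- ATM. In ND CD11c- ATM the mean was 2.89, below the array median. The WL CD11c- sort thus lay above the lean CD11c- sort, a comparison of levels without a test.

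In all, 208 genes were called between the WL sorts, 1.34% of those tested, which is the share to set beside each list count below. Of these, 107 were higher in CD11c+ ATM (0.691% of tested genes) and 101 were lower (0.652%), and 2280 genes had an unadjusted p under 0.05. With array medians centred the split was 72 higher and 107 lower. The falls were larger: 44 called genes were lower by 2 log2 units or more and 15 were higher by as much. The arrays of the sorts did not overlap for any called gene, which was also true of 24.3% of all tested genes. The calls rest on the spread pooled over all groups: with macrophage arrays alone 99 genes were called, with arrays weighted by quality 43, and with the 5 WL arrays alone 1, the immunoglobulin kappa variable segment Igkv4-59, named here after its values were seen (1.34, 1.53 and 1.33 in CD11c+ ATM against 6.11 and 6.11 in CD11c- ATM, limma adjusted p = 0.0285 in that fit). Leaving out 1 WL array gave 153 to 296 calls, and 42 genes, 9 higher and 33 lower, were called with every such array left out in turn; without WL CD11c- replicate 2 there were 291 and without WL CD11c+ replicate 1 there were 296.

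**Figure D1:**
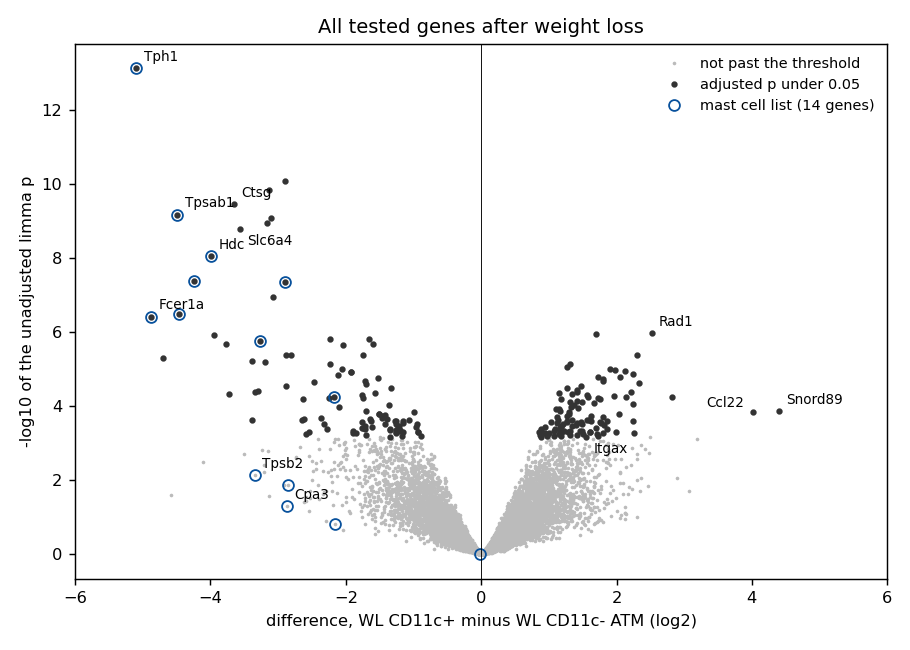
Difference between WL CD11c+ and WL CD11c- ATM (x axis, log2) against the unadjusted limma p (y axis, -log10) for the 15496 tested genes, with the 208 called genes as dark points and the 14 genes of the mast cell list ringed. The ringed genes lie on the left, from Tph1 at -5.09 to Hpgds at -0.01, and 9 of them are dark.

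Genes of mast cells were prominent among the falls and made up 7 of the 15 largest ones. Of those 15, 13 were called with any 1 WL array left out and 11 with quality weights. Of the 14 genes on a mast cell list, 9 fell in WL CD11c+ ATM and 0 rose, where 0.652% of all tested genes fell, and the list's median difference was -3.31 against 0.03 over all tested genes. The list's level on an array, the median of its members, was 7.68 and 8.00 in WL CD11c- ATM and 4.39, 3.91 and 3.48 in WL CD11c+ ATM. In HFD CD11c- ATM it was 4.10, 2.31 and 2.79, in HFD CD11c+ ATM 2.83, 2.20 and 2.51, and in ND CD11c- ATM 2.36 and 2.47. All 14 members lay above the array median on both WL CD11c- arrays and 6 of them on all WL CD11c+ arrays, against 3 in each HFD sort and 1 in the lean sort. The WL CD11c- sort thus stood above every other macrophage sort, and the WL CD11c+ sort lay between it and the lean sort. In bulk samples, fewer cells of a type and less RNA per cell cannot be told apart. Of the 9 calls, 8 remained with quality weights and 8 or 9 with any 1 WL array left out.

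Distinct receptors trigger the mast cell, and their genes fell together. Fcer1a, the alpha chain of the high-affinity IgE receptor, measured 4.73, 1.96 and 2.68 in CD11c+ ATM and 7.57 and 8.43 in CD11c- ATM. It fell by 4.88 ± 0.65 (limma adjusted p = 0.000421). The 5 arrays split cleanly by sort, with CD11c+ replicate 1 the highest of its group. Ms4a2, the beta chain of that receptor, measured 3.10, 2.27 and 2.55 against 5.01 and 6.07 and was lower by 2.90 ± 0.33 (limma adjusted p = 6.13e-05), again with no overlap. Mrgprb2, the mouse receptor through which basic peptides and drugs trigger mast cells without IgE, measured 3.51, 2.25 and 3.18 against 7.22 and 7.68, a fall of 4.47 ± 0.59 (limma adjusted p = 0.000396). Its neighbour in the same family, Mrgprb1, measured 4.05, 4.12 and 2.63 against 7.99 and 7.69 and fell by 4.24 ± 0.49 (limma adjusted p = 6.13e-05). Probe sequences were not used, so signal shared between such close relatives could not be separated. Kit, the receptor for stem cell factor on which mast cells depend, measured 5.50, 5.31 and 3.78 against 7.22 and 9.05 and was lower by 3.27 ± 0.48 (limma adjusted p = 0.00135). Gata2, a transcription factor of the mast cell lineage, measured 2.02, 3.42 and 2.77 against 4.20 and 5.63. Its fall of 2.18 ± 0.43 (limma adjusted p = 0.0126) lost its call without CD11c- replicate 2 (adjusted p = 0.135).

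GATA factors bind the letters GATAA, and the lineage factor Gata2 was among the genes that fell, so the promoters of the mast cell list were searched for these letters. Shown are Fcer1a, Ms4a2 and Mrgprb2, the called genes of the list that held a match, and Cpa3, the mast cell carboxypeptidase, which held one and was not called, as was also so for Mcpt4 and Cma1. They were picked for holding the letters and do not stand for the list. Each line gives the 250 bases before a RefSeq start site of build GRCm38.p6, written 5′ to 3′ on the gene's strand, with GATAA or its reverse complement TTATC in capitals. All 4 genes lie on the minus strand, Fcer1a at chr1:173227230-173227479, Ms4a2 at chr19:11623720-11623969, Mrgprb2 at chr7:48558087-48558336 and Cpa3 at chr3:20242182-20242431.
Fcer1a: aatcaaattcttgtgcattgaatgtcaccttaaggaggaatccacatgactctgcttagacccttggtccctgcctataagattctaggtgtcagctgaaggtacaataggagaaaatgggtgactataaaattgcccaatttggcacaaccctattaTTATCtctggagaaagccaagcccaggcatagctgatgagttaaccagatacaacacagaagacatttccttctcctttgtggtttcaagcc
Ms4a2: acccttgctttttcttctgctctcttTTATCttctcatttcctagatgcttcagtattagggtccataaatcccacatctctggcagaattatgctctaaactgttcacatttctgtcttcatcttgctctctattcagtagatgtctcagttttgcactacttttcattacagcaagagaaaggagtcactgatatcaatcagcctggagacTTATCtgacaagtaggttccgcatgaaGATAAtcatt
Mrgprb2: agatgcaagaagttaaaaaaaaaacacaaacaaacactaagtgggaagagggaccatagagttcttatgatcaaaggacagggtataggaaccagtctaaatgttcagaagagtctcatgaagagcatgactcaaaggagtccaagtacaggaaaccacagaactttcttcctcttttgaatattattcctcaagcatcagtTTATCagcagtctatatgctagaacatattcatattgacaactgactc
Cpa3: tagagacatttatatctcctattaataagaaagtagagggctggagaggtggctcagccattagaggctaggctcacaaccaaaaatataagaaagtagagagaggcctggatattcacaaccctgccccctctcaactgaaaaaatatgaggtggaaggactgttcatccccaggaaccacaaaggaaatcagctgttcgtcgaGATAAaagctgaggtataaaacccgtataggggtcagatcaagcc
The match starts at position -92 in Fcer1a, at -224, -37 and -10 in Ms4a2, at -48 in Mrgprb2 and at -45 in Cpa3, counted from the start site. Of the 9 mast cell genes that fell, 8 had a promoter in the table and 3 of these held a match, while Kit, Hdc, Mrgprb1, Gata2 and Tph1 held none in this window. Over the whole mast cell list 6 of 12 promoters held one, against 19.04% of the 12006 tested genes with a promoter and 22.58% of all 32851 windows. A match describes the letters in the window and is not shown to be a site in use.

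Tph1, Hdc, Slc18a2 and Slc6a4, which make, store or take up amines, were all called lower. Tph1, the enzyme that starts serotonin synthesis outside the brain, measured 1.93, 2.60 and 2.74 in CD11c+ ATM and 7.78 and 7.25 in CD11c- ATM. It fell by 5.09 ± 0.27 (limma adjusted p = 1.16e-09). No CD11c+ array lay above its own median. The least difference, taken against the median as a floor, was thus 4.46, or at least 22.0-fold. On every array outside the WL CD11c- sort Tph1 lay at 2.74 or less, under the lowest array median of 2.96. Tph1 thus entered the test through the WL CD11c- arrays alone. Its standard error pools mostly arrays at the floor, so its p-value does not measure the spread where the gene was expressed. Hdc, the enzyme that makes histamine, measured 2.79, 2.65 and 3.81 against 6.44 and 7.70, a fall of 3.99 ± 0.41 (limma adjusted p = 1.51e-05). Both genes were low on the CD11c+ arrays and high on both CD11c- arrays. Slc18a2, the vesicular transporter that loads amines into granules, was named after its values were seen and measured 3.27, 3.66 and 3.28 against 6.53 and 6.55 (-3.14 ± 0.26, limma adjusted p = 7.7e-07). Slc6a4, the serotonin uptake transporter, measured 1.87, 1.99 and 2.67 against 5.87 and 5.62. It was lower by 3.57 ± 0.33 (limma adjusted p = 3.18e-06), with a least difference of 2.69. Outside the WL CD11c- sort Slc6a4 lay at 2.91 or less on every array, so the limit given for the p-value of Tph1 applies to it too. Neither Slc18a2 nor Slc6a4 is on the mast cell list. Slc18a2 had means of 2.77 to 3.40 in the groups outside WL CD11c-, near the array medians. Hdc, Tpsab1, Mrgprb1 and Ms4a2 had means of 1.91 to 2.83 in the ND and HFD groups, under the lowest array median. The standard errors of these genes thus also pool mostly arrays near the floor, and the same limit applies to their p-values.

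The granule proteases were divided by the test, although the WL arrays did not overlap for any of those named here. Tpsab1, a tryptase gene that the gene table annotates as a transcribed pseudogene, measured 3.21, 3.71 and 2.42 against 6.91 and 8.29 and fell by 4.49 ± 0.40 (limma adjusted p = 2.06e-06). Ctsg, the granule serine protease cathepsin G, measured 2.31, 2.88 and 2.24 against 5.74 and 6.52, a fall of 3.65 ± 0.31 (limma adjusted p = 1.32e-06). It was the only 1 of 17 cathepsin list genes called. Outside the WL CD11c- sort Ctsg lay at 2.88 or less on every array, so the limit given for the p-value of Tph1 applies here too. Gzmb, the cytotoxic protease granzyme B, measured 4.15, 4.06 and 4.68 against 7.39 and 8.74 and was lower by 3.77 ± 0.57 (limma adjusted p = 0.00146). These 3 kept their calls with any 1 WL array left out. Cpa3, Tpsb2, Cma1 and Mcpt4 were not called although their arrays did not overlap.

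Cpa3 measured 7.84, 7.96 and 7.71 in WL CD11c+ ATM and 10.55 and 10.87 in WL CD11c- ATM, a difference of -2.87 ± 1.38 (limma adjusted p = 0.342). The tryptase Tpsb2 measured 7.11, 6.99 and 6.75 against 10.14 and 10.46 (-3.35 ± 1.11, limma adjusted p = 0.143), and the chymase Cma1 7.06, 5.82 and 6.41 against 9.23 and 9.32 (-2.85 ± 1.04, limma adjusted p = 0.189). Mcpt4, another chymase, measured 7.81, 7.19 and 7.22 against 9.46 and 9.68, and its difference of -2.16 had an adjusted p of 0.513. The standard errors pool the spread of all groups, and the HFD arrays differed widely: Cpa3 ran from 2.29 to 8.43 in HFD CD11c- ATM and from 3.37 to 6.46 in HFD CD11c+ ATM. The called Tpsab1 and Ctsg had standard errors of 0.40 and 0.31. Their means in HFD CD11c+ and CD11c- ATM were 2.48 and 2.52 for Tpsab1 and 1.88 and 2.09 for Ctsg, below the array medians. The split between called and uncalled proteases thus follows the spread in other groups too. The WL CD11c+ sort was also well above the lean sort for these genes, 7.84 against 2.97 for Cpa3 and 6.95 against 1.75 for Tpsb2, as levels without a test. Hpgds, a prostaglandin D2 synthase that macrophages express too, measured 7.55, 8.01 and 8.52 against 8.37 and 7.71, a difference of -0.01 ± 0.64, and overlapped. The other 13 members of the list did not overlap between the WL sorts, as was true of 24.3% of all tested genes.

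**Figure D2:**
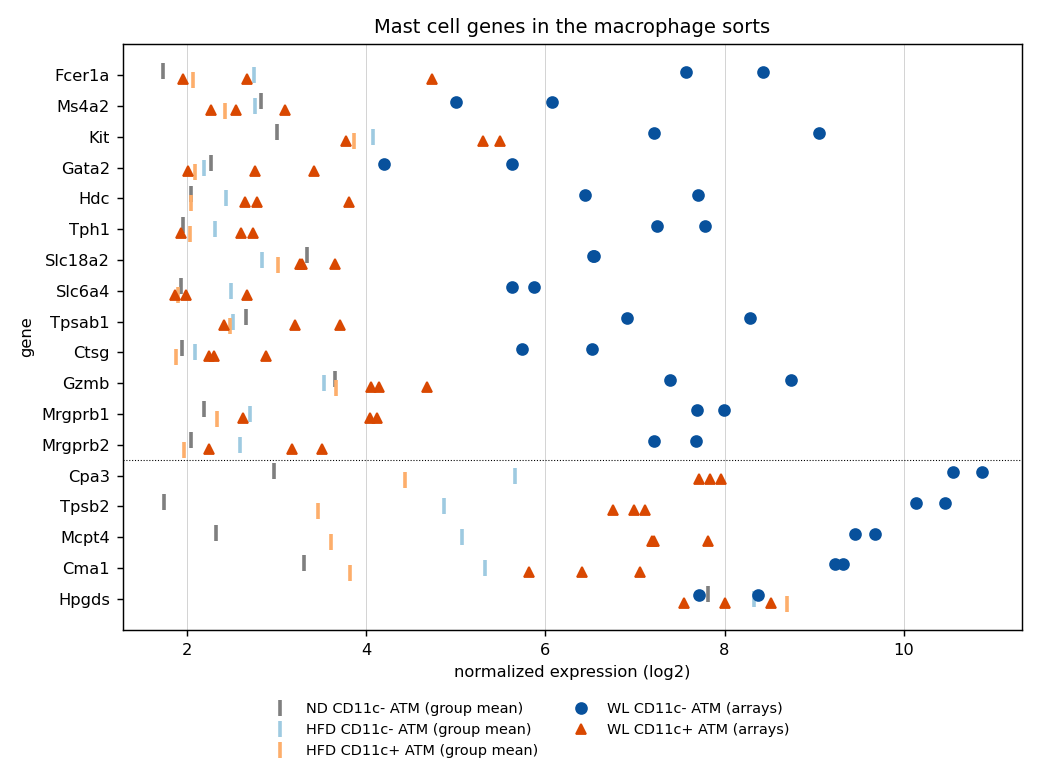
Log2 expression (x axis) of 18 mast cell and granule genes (y axis), with each WL array as a circle (CD11c-) or a triangle (CD11c+) and the means of the ND and HFD macrophage sorts as ticks; genes below the dotted line were not called. The circles lie right of the triangles for every gene but Hpgds, and the ticks lie near the triangles above the line and left of them for Cpa3, Tpsb2, Mcpt4 and Cma1.

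Csf2, the gene of granulocyte-macrophage colony-stimulating factor, measured 2.78, 2.88 and 3.15 in CD11c+ ATM and 4.36 and 4.72 in CD11c- ATM, a fall of 1.60 ± 0.24 (limma adjusted p = 0.00146). Among 22 inflammatory cytokine genes, with a median difference of -0.29, it was the only one called, where 1.34% of all tested genes were. Il4, named after its values were seen, measured 2.90, 3.71 and 3.18 against 5.17 and 5.44 (-2.04 ± 0.31, limma adjusted p = 0.00146). Both genes split by sort without overlap. The macrophage cytokine genes Il1b and Il6 were lower without passing the test: Il1b measured 6.65, 6.58 and 7.18 against 7.96 and 8.51 (adjusted p = 0.096), and Il6 4.99, 6.25 and 6.96 against 8.13 and 8.02 (adjusted p = 0.0814).

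The levels of the natural killer (NK) cell, monocyte and T cell lists were higher in the WL CD11c- sort too, with few genes past the test. Those of the B cell, dendritic cell, neutrophil and eosinophil lists overlapped between the WL sorts. The part of such cells in the results was not tested. Of 12 NK cell genes 1 was called, where 1.34% of all tested genes were. It was Gzmb, which is also described above among the granule proteases. All 12 differences were negative, with a median of -1.42 against 0.03 over all tested genes. The level of that list was 5.22 and 5.50 in WL CD11c- ATM and 4.16, 3.99 and 3.82 in WL CD11c+ ATM, against 3.49 to 4.15 in the lean and HFD macrophage sorts, so that the WL CD11c- arrays were the highest among macrophages. In the adipose tissue dendritic cell sorts it was 7.63 and 7.41 on the ND and 7.31, 5.08 and 5.15 on the HFD. Klra9, an NK cell receptor of the Ly49 family, measured 0.69, 0.92 and 1.05 against 3.25 and 5.30 (limma adjusted p = 0.00323), with a least difference of 1.21, and Stat4, a transcription factor of interleukin-12 signalling in T and NK cells, measured 2.15, 3.66 and 4.60 against 6.93 and 6.41 and fell by 3.20 ± 0.52 (limma adjusted p = 0.00332). Klrk1, the activating receptor NKG2D, measured 4.98, 4.70 and 3.05 against 6.53 and 6.05 and was not called (adjusted p = 0.0865).

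Of 13 monocyte genes 2 fell and 0 rose, where 0.652% of all tested genes fell. Of the 13 differences 12 were negative, with a median of -1.18. The list's level was 6.63 and 6.80 in WL CD11c- ATM and 6.02, 6.14 and 5.97 in WL CD11c+ ATM. Ms4a4c, a membrane protein related to CD20, measured 3.06, 3.48 and 2.99 against 6.51 and 6.44 (-3.30 ± 0.62, limma adjusted p = 0.0109). Chil3, the chitinase-like protein Ym1, measured 2.44, 3.01 and 2.27 against 4.72 and 5.51 (limma adjusted p = 0.0423), a call lost without any 1 of CD11c+ replicates 1 and 3 and CD11c- replicates 1 and 2, with adjusted p up to 0.176. The defining monocyte genes Ly6c2 and Ccr2, a surface antigen and the receptor of Ccl2, were not called. Ly6c2 measured 7.62, 6.38 and 6.42 against 8.59 and 8.65 (adjusted p = 0.0842), and Ccr2 measured 8.16, 8.50 and 8.26 against 9.11 and 9.50 (adjusted p = 0.557). Plac8 differed by -1.48 ± 0.37 (adjusted p = 0.0568).

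The remaining cell type lists held 1 or 0 called genes in either direction, apart from dendritic cell identity, where Ccl22 rose and Kit fell among 17. Kit is also on the mast cell list, and 1.34% of all tested genes were called. Of 10 B cell genes Ms4a1, which encodes CD20, fell, measuring 1.95, 2.47 and 2.42 against 3.96 and 4.13 (limma adjusted p = 0.0122, and 0.057 without CD11c- replicate 2), while Cd79b, a signalling chain of the B cell receptor, differed by -2.18 ± 0.56 without a call (adjusted p = 0.0606). The B cell list level was 4.65 and 5.07 in WL CD11c- ATM and 4.49, 4.36 and 4.83 in WL CD11c+ ATM, which overlapped. Of 12 T cell genes 0 were called, and the level was 4.76 and 4.72 against 4.38, 3.99 and 3.79. Of 16 preadipocyte and fibroblast genes 0 were called, all 16 differences were negative with a median of -0.69, and the level was 8.61 and 7.56 against 7.11, 7.75 and 7.06. Pdgfra, the growth factor receptor that marks preadipocytes, measured 6.61, 6.69 and 6.59 against 8.57 and 7.24. Of 12 endothelial genes 0 were called, with a median of -0.83; the vascular cadherin Cdh5 measured 6.40, 6.51 and 6.61 against 7.64 and 8.58, and the growth factor receptor Kdr 4.04, 3.98 and 4.05 against 5.55 and 5.60. Neutrophil, eosinophil, mesothelial, adipocyte, pericyte and erythroid lists had 0 calls.

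**Figure D3:**
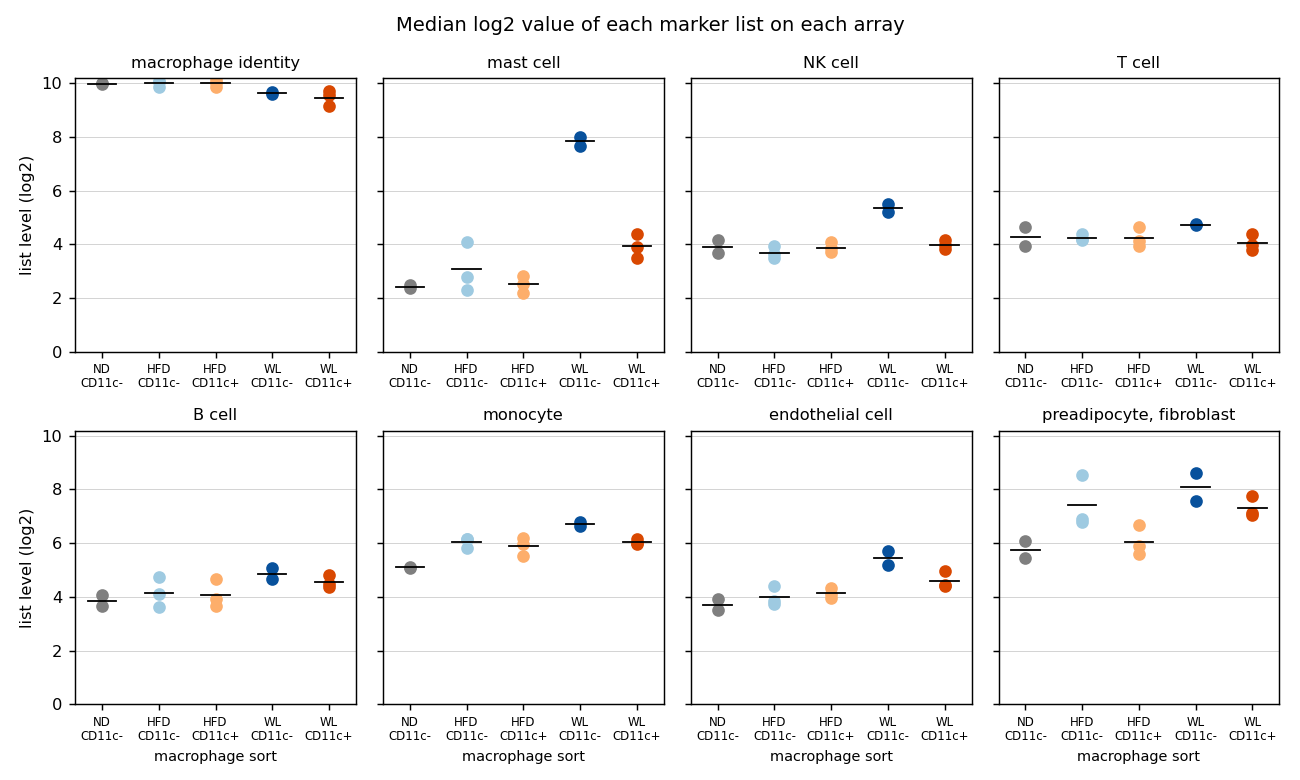
Level of 8 marker lists, the median log2 value of the list's genes (y axis), on each array of the 5 macrophage sorts (x axis), with group means as bars. Macrophage identity lies between 9.15 and 10.1 on every array, while the mast cell list reaches 7.68 and 8.00 in WL CD11c- ATM and at most 4.39 elsewhere.

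Genes of the obese, lipid-laden macrophage did not separate the WL sorts at the threshold. Of 22 lipid-associated macrophage genes 0 were called, and 19 differences were positive, with a median of 0.45 after weight loss and 0.49 on the HFD. Cd9, a tetraspanin of lipid-laden macrophages, measured 8.56, 8.62 and 9.08 in CD11c+ ATM and 7.77 and 7.77 in CD11c- ATM (0.98 ± 0.48, limma adjusted p = 0.357). Trem2, a receptor for lipids, measured 9.31, 9.57 and 9.98 against 9.24 and 8.86, and Lpl, the enzyme that splits triglycerides, differed by 0.22 ± 0.29. Cd9 and Trem2 arrays did not overlap and Lpl arrays did. Both sorts carried these genes above the lean sort, where the means were 4.95 for Cd9, 7.76 for Trem2 and 9.43 for Lpl, as levels without a test. Atp6v0d2, a proton pump subunit of lipid-laden macrophages, differed by 1.10 ± 0.67 after weight loss and by 1.36 on the HFD.

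Genes of resident macrophages lay the other way, again below the threshold. Of 22 tissue-resident macrophage genes 0 were called and 21 differences were negative. The median was -0.60, beside 0.03 over all tested genes, against -1.17 on the HFD. Mgl2, a galactose-binding lectin, measured 6.01, 4.69 and 5.29 against 7.97 and 7.13 (adjusted p = 0.126). Lyve1, a hyaluronan receptor, measured 8.21, 8.81 and 7.46 against 9.70 and 9.31, and Cd163, the haemoglobin scavenger receptor, 6.89, 7.85 and 6.77 against 8.84 and 8.14. For all 3 the CD11c+ arrays lay below both CD11c- arrays, with differences of -2.22, -1.35 and -1.32. The mannose receptor Mrc1 differed by -0.45 ± 0.61. Collagen and extracellular matrix genes, 35 in number, had 0 calls and 34 negative differences, with medians of -0.60 after weight loss and -1.28 on the HFD, beside the preadipocyte levels above, whose part was not tested.

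Lysosomal, sterol and cell division genes leaned towards the CD11c+ sort. Of 26 lysosomal genes 25 differences were positive, with a median of 0.48, and 1 gene rose, where 0.691% of all tested genes did. Atp6v0d1, a subunit of the proton pump that acidifies lysosomes, measured 8.74, 9.02 and 8.75 against 7.63 and 7.62 (1.21 ± 0.28, limma adjusted p = 0.034). Its call was lost without CD11c+ replicates 2 or 3 or CD11c- replicates 1 or 2 (adjusted p up to 0.102). Gusb, a lysosomal glucuronidase, differed by 1.08 ± 0.33 and was not called. Respiratory chain subunits showed 24 positive differences of 26, with a median of 0.35 and 0 calls, among them Cox7a2, a subunit of cytochrome c oxidase, at 0.71 ± 0.19 (adjusted p = 0.0756). NRF2 antioxidant genes had a median of 0.45 over 18 genes and 0 calls.

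Of 21 sterol and fatty acid synthesis genes 2 rose and 0 fell, where 0.691% of all tested genes rose. There were 20 positive differences, with a median of 0.54. Sc5d, a desaturase late in cholesterol synthesis, measured 7.79, 7.83 and 6.45 in CD11c+ ATM and 4.86 and 5.61 in CD11c- ATM, a rise of 2.13 ± 0.36 (limma adjusted p = 0.0047, and 0.0538 without CD11c- replicate 1). Cyp51, the lanosterol demethylase, measured 6.49, 6.31 and 7.29 against 3.99 and 5.69, a rise of 1.86 ± 0.44 (limma adjusted p = 0.0398) whose call was lost without CD11c+ replicate 3 (1.56, adjusted p = 0.102) or CD11c- replicate 1, where the difference shrank to 1.01 (adjusted p = 0.347). Both genes were higher on every CD11c+ array. Hmgcs1, an early enzyme of the pathway, measured 7.51, 7.21 and 6.84 against 5.22 and 5.98 and was not called (adjusted p = 0.096). Abcg1, which exports cholesterol from macrophages, was the only call among 19 efflux and scavenger genes, where 1.34% of all tested genes were called. It measured 7.37, 8.30 and 7.58 against 6.14 and 6.24 and rose by 1.56 ± 0.35 (limma adjusted p = 0.0317), a call lost without CD11c+ replicate 2 or either CD11c- array (adjusted p 0.0737 to 0.11). The corresponding difference of Abcg1 on the HFD was 0.89.

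Of 37 cell cycle genes 1 was called, where 1.34% of all tested genes were. Of the 37 differences 35 were positive, with a median of 0.56, against 0.77 on the HFD. Ccna2, the cyclin of S and G2 phase, measured 6.59, 7.01 and 7.65 against 5.74 and 4.81, a rise of 1.81 ± 0.41 (limma adjusted p = 0.0344) that was lost without CD11c+ replicates 2 or 3 or CD11c- replicate 2 (adjusted p 0.0567 to 0.198). The mitotic kinase genes Aurkb and Cdk1 and the replication helicase gene Mcm2 differed by 1.64 ± 0.52, 1.38 ± 0.46 and 1.36 ± 0.39 and were not called. For each of the 4 genes, every CD11c+ array lay above both CD11c- arrays.

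**Figure D4:**
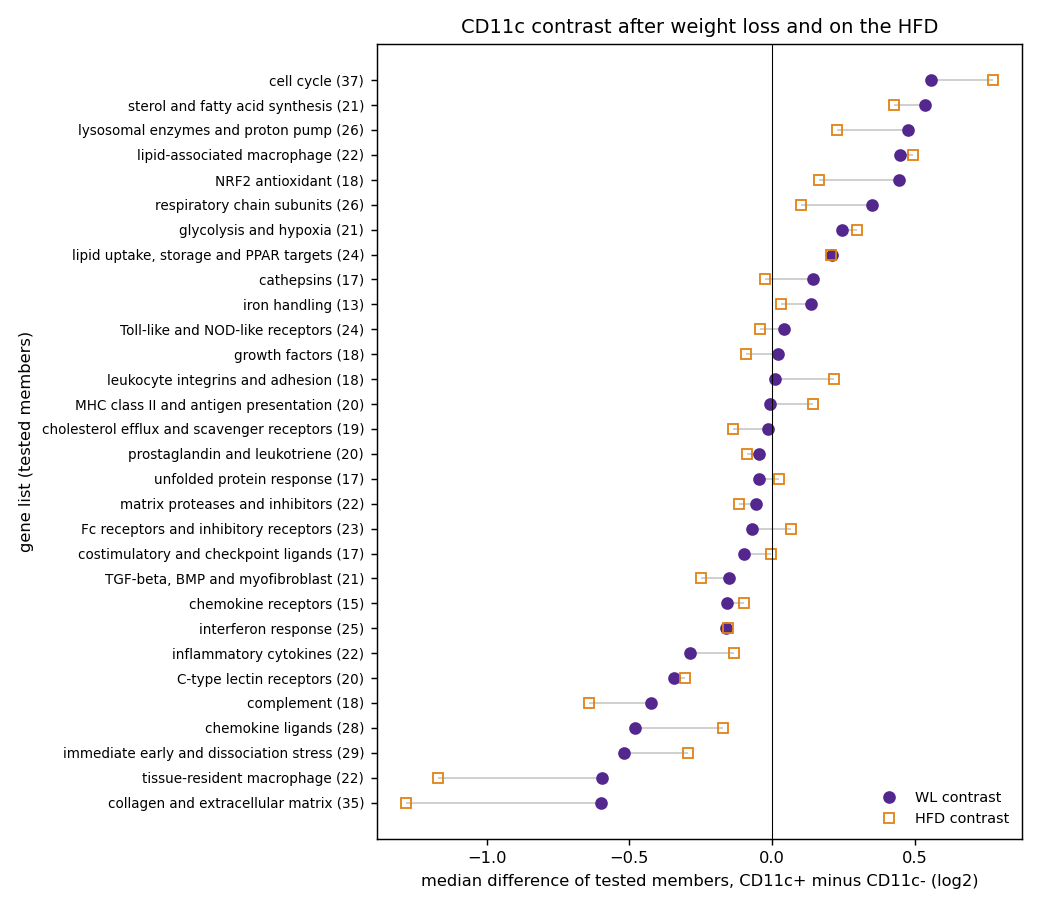
Median difference between CD11c+ and CD11c- ATM (x axis, log2) over the tested members of 30 gene lists (y axis, with the number of tested members), after weight loss (filled circles) and on the HFD (open squares). Cell cycle lies furthest right after weight loss at 0.56, and the tissue-resident and matrix lists lie furthest left at -0.60, nearer to 0 than their HFD values of -1.17 and -1.28.

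The largest rises were spread over unrelated roles. Snord89, a small nucleolar RNA that guides RNA methylation, measured 5.97, 9.03 and 6.72 against 2.70 and 2.98, a rise of 4.40 ± 0.93 (limma adjusted p = 0.0233) with a least difference of 4.11. Ccl22, a chemokine that attracts CCR4-bearing T cells, measured 5.21, 7.65 and 5.92 against 2.12 and 2.37 and rose by 4.02 ± 0.85 (limma adjusted p = 0.024), with a least difference of 3.14. Neither CD11c- array lay above its median for these genes. Both calls were lost without CD11c+ replicate 2 or either CD11c- array, with adjusted p from 0.0605 to 0.09. Among 28 chemokine ligands, with a median of -0.48, Ccl22 was the only called gene, where 1.34% of all tested genes were called. On the HFD it differed in the same direction, by 2.65, with 6.34 in CD11c+ ATM and 3.69 in CD11c- ATM, and in adipose tissue dendritic cells it measured 9.76 on the HFD. Its partner ligand of CCR4, Ccl17, measured 3.69, 4.49 and 5.45 against 2.13 and 2.61 and was not called (adjusted p = 0.244), while Ccl2 and Ccl7, which attract monocytes, differed by -0.97 ± 0.47 and -2.18 ± 0.64.

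Among the 15 largest rises, 4 kept their calls with any 1 WL array left out. Rad1, a part of the clamp that senses DNA damage, measured 4.85, 6.05 and 6.58 against 2.86 and 3.76 (2.52 ± 0.36, limma adjusted p = 0.00105). Trit1, which modifies transfer RNAs, measured 5.53, 6.06 and 5.33 against 2.91 and 3.78 (2.30 ± 0.36, limma adjusted p = 0.00242). Mgst3, a microsomal glutathione transferase, measured 6.88, 7.36 and 7.65 against 5.02 and 5.09 (2.24 ± 0.39, limma adjusted p = 0.00507). Every CD11c+ array exceeded both CD11c- arrays by over 1 log2 unit for these 3 genes. Faap24, of the Fanconi anaemia DNA repair complex, measured 5.80, 5.10 and 6.03 against 3.46 and 3.72 (2.05 ± 0.36, limma adjusted p = 0.00592). With quality weights Rad1, Trit1 and Mgst3 were the 3 of the 15 that stayed called.

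The other large rises lost their calls with 1 array or another left out, while several kept a difference of similar size. Habp4, Eef1e1 and Klhl28 shrank by more than 1.5 times without CD11c- replicate 1. Habp4, which encodes an RNA-binding protein, rose by 2.25 and differed by 1.18 without that array (adjusted p = 0.21). Eef1e1, a part of the transfer RNA synthetase complex, rose by 2.14 and differed by 1.23 without it (adjusted p = 0.172). Klhl28 rose by 2.24 and differed by 1.04 without it (adjusted p = 0.324), and its call was also lost without CD11c+ replicates 2 or 3, at 2.20 and 2.29. The remaining genes kept most of their difference. Vcpkmt, a lysine methyltransferase, rose by 2.82 and differed by 2.40 without CD11c- replicate 1 (adjusted p = 0.0982). Slc7a6, an amino acid transporter, and Bpgm, an enzyme beside glycolysis, rose by 2.33 and 2.21 and differed by 1.96 and 2.00 without CD11c- replicate 2 (adjusted p = 0.0638 and 0.0624). The autophagy gene Atg14 rose by 2.26 and differed by 1.87 to 2.34 without CD11c+ replicates 1 or 3 or either CD11c- array (adjusted p 0.073 to 0.137). Prim1, a DNA primase subunit, rose by 2.03 and differed by 1.83 to 2.08 without CD11c+ replicate 3 or either CD11c- array (adjusted p 0.0719 to 0.0789).

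**Figure D5:**
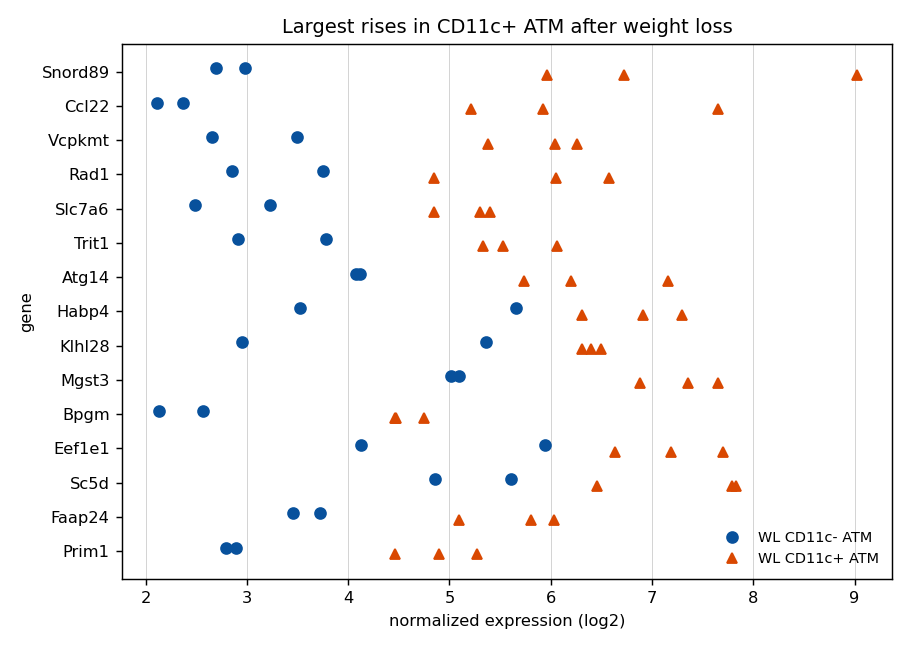
Log2 expression (x axis) of the 15 genes with the largest called rises (y axis) on each WL array, CD11c- as circles and CD11c+ as triangles. All triangles lie right of all circles for every gene, and the circles of Klhl28 lie far apart, at 2.95 and 5.36.

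Clec4n, which encodes the fungal lectin receptor Dectin-2, measured 3.97, 4.98 and 5.32 in CD11c+ ATM and 7.52 and 6.74 in CD11c- ATM and fell by 2.37 ± 0.52 (limma adjusted p = 0.0298). Clec4e, the lectin receptor Mincle, measured 6.10, 5.81 and 6.08 against 7.29 and 7.20 and fell by 1.25 ± 0.28 (limma adjusted p = 0.0317). They were the 2 called genes of 20 C-type lectin receptors, where 1.34% of all tested genes were called. In both genes the CD11c+ arrays lay below both CD11c- arrays. Without CD11c- replicate 1 their adjusted p was 0.168 and 0.112; the Clec4n call was also lost without CD11c+ replicate 1, and the Clec4e call without CD11c+ replicates 2 or 3 or CD11c- replicate 2. Cd86, a costimulatory ligand for T cells and the only called gene of 17 tested costimulatory and checkpoint ligands, measured 6.34, 7.02 and 7.25 against 8.06 and 8.44 (-1.39 ± 0.30, limma adjusted p = 0.031), and lost its call without CD11c+ replicate 1 (0.0659) or CD11c- replicate 2 (0.131). Pilrb1, an activating immunoglobulin-like receptor and the only called gene of 23 tested Fc and inhibitory receptors, measured 3.29, 5.33 and 3.34 against 8.00 and 7.43 (-3.73 ± 0.71, limma adjusted p = 0.0111, and 0.0674 without CD11c- replicate 1).

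Fosl2, a member of the AP-1 factors induced by growth signals and by tissue digestion, measured 5.14, 5.89 and 6.17 against 7.78 and 8.14 and fell by 2.23 ± 0.33 (limma adjusted p = 0.00122). Dusp2, a phosphatase that shuts off MAP kinases, measured 4.60, 4.42 and 4.96 against 6.35 and 5.90 (-1.47 ± 0.32, limma adjusted p = 0.0284), and lost its call without CD11c+ replicate 2 (0.0678) or CD11c- replicate 1 (0.151). These were the 2 calls among 29 immediate early and dissociation stress genes, where 1.34% of all tested genes were called. Of the 29 differences 25 were negative, with a median of -0.52 against -0.29 on the HFD. Egr3, another gene of that list, measured 5.57, 4.61 and 4.44 against 7.21 and 7.87 (adjusted p = 0.0686). The WL CD11c- sort was thus the higher one for most genes of a list that includes those induced by tissue handling, and their part in the other differences was not tested. Spic, a transcription factor of iron-recycling macrophages and the only called gene of 13 tested iron-handling genes, measured 5.41, 2.80 and 3.98 against 5.89 and 7.48 (-2.62 ± 0.58, limma adjusted p = 0.0317), a call lost without CD11c+ replicates 2 or 3 or CD11c- replicate 2 (adjusted p 0.0665 to 0.198). Gbp3, an interferon-induced GTPase and the only called gene of 25 on that list, measured 4.97, 5.06 and 4.46 against 6.39 and 5.96 (limma adjusted p = 0.0403), and lost its call without CD11c+ replicate 3 or either CD11c- array (adjusted p up to 0.2). Snord35a, a small nucleolar RNA, measured 3.01, 2.27 and 5.19 against 7.60 and 6.17 (-3.39 ± 0.75, limma adjusted p = 0.0317) and lost its call without CD11c+ replicates 1 or 2 or CD11c- replicate 1 (adjusted p up to 0.197).

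Other lists gave no call. Major histocompatibility class II genes had a median of -0.01 over 20 genes and chemokine receptors -0.16 over 15, where Cxcr6, the receptor of a chemokine that retains T and NK cells in tissue, differed by -2.16 ± 0.54 (adjusted p = 0.0549). Leukocyte integrins had a median of 0.01 over 18 genes and Toll-like and NOD-like receptors 0.04 over 24. Among 22 matrix proteases and inhibitors, Mmp13, a collagenase, measured 3.50, 5.53 and 6.43 in CD11c+ ATM and 2.55 and 2.79 in CD11c- ATM, and Mmp9, a gelatinase, 5.76, 5.55 and 5.38 against 7.62 and 6.20. They lay on opposite sides, with adjusted p of 0.079 and 0.0673. The lists for complement, TGF-beta and myofibroblast genes, growth factors, prostaglandin and leukotriene genes, the unfolded protein response, glycolysis and lipid uptake also had 0 calls.

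The genes called after weight loss differed less between the same sorts on the HFD, although the WL values chose them, so that this is a description. On the HFD 1 gene, 0.00645% of those tested, was called between HFD CD11c+ and HFD CD11c- ATM, the NK receptor gene Klrb1b (2.49 ± 0.37, limma adjusted p = 0.032), and 997 genes had an unadjusted p under 0.05. Klrb1b lay at 2.83 or less on the HFD CD11c- arrays, under the lowest array median of 2.96, so the size of its difference is not reliably measured. The contrasts share no arrays. Of the 107 genes called higher in WL CD11c+ than in WL CD11c- ATM, 85 had a positive HFD difference. Their median HFD difference was 0.21, against 1.42 between the WL sorts. Of the 101 called lower in WL CD11c+ ATM, 67 had a negative HFD difference, with a median of -0.21 against -1.76. Over all tested genes 58.28% had the same sign in both contrasts.

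The difference between the contrasts was tested as an interaction, WL minus HFD, and 25 genes were called, 0.161% of those tested. Of these 22 were negative (0.142%) and 3 positive (0.0194%), and 23 of the 25 were also called after weight loss. From the mast cell list 5 genes were among them: Tph1 (-4.82 ± 0.36, limma adjusted p = 6.13e-07), Tpsab1, Hdc, Mrgprb1 and Ms4a2. On the HFD these 5 genes differed by -0.28, -0.04, -0.39, -0.37 and -0.33 in that order. Both HFD sorts had means from 2.04 to 2.76 for them, below the lowest array median of 2.96. These HFD differences thus lie at the floor and give no measured size of a CD11c contrast on the HFD. Fosl2 was also among the 22, with a WL difference of -2.23 and an HFD difference of 0.44 (interaction -2.67 ± 0.44, limma adjusted p = 0.00948). The 3 positive genes were Rad1, Gpatch2l and Lgi2. Rad1 had means of 6.79 and 6.75 in HFD CD11c+ and CD11c- ATM, so that the WL CD11c- arrays, at 2.86 and 3.76, were the low ones. Gpatch2l, named for a glycine-rich nucleic acid-binding domain, measured 6.62, 7.43 and 6.95 in WL CD11c+ ATM and 5.53 and 5.08 in WL CD11c- ATM, beside 6.88 and 6.85 on the HFD. The same held for Snord89, with HFD means of 8.12 and 8.27, although its interaction was not called (4.55 ± 1.24, adjusted p = 0.32). Lgi2, a secreted leucine-rich protein, was not called after weight loss (0.94 ± 0.44) and differed by -2.08 on the HFD. It lay at 2.90 or less on the HFD CD11c+ arrays, under the lowest array median, so that HFD size is not reliably measured. Itgax, with an interaction adjusted p of 0.994, and the lipid-associated list, with 0 interaction calls, gave no detectable difference between the contrasts with this number of arrays.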

How the data were processed

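Per the labels' protocols, RNA of the sorted cells was amplified to cDNA with a NuGEN kit, and biotinylated cDNA was read on single-colour arrays. The authors deposited log2 expression values; per the submitters' processing notes they used RMA, oligo and limma, without versions, and it is not stated whether limma altered the values. RMA brings the arrays towards a common distribution, so a true global shift between samples cannot be read from these values. Array medians still ran from 2.96 to 3.15, and centring them changed the split of the calls. Scanner intensities were not used here, so no probe-level background is known, and the number of arrays limits the precision.

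The table held 41345 probe rows on 24 arrays in 9 groups, placed by the group and number in each title. A single gene symbol came with 23521 rows, several with 1814, and 16010 were unnamed; 23328 of the single symbols were matched to the RefSeq gene table and 0 changed. Each of the 22180 genes with 1 symbol took its brightest probe row, by mean over the arrays. Values were analysed as deposited with limma 3.58.1 in R 4.3.3 (1 mean per group, 24 arrays, 15 residual degrees of freedom, empirical Bayes, Benjamini-Hochberg adjustment over 15496 genes), with 3 contrasts: CD11c+ minus CD11c- after weight loss, the same on the HFD, and their difference. The fit was tested on simulated data. Tables and figures were made with Python 3.11.15, pandas 2.3.3 and matplotlib 3.10.9.

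Genes named are the 15 largest rises and 15 largest falls among called genes whose arrays did not overlap (predicted genes, antigen receptor segments and olfactory or vomeronasal receptors left out), up to 5 interaction genes each way, up to 5 called and 3 uncalled members of each described list by size, and a set of marker genes; others are said to be named after their values were seen, and Ms4a2, Gata2, Mcpt4 and Hpgds were added that way to complete the mast cell list. The members and the 45 gene lists were chosen with earlier results of these data known, and the array median as a floor was chosen after seeing the data. For a least difference, each array of the dimmer group was raised to its array median where the gene lay below it, and the group means were subtracted. Promoter sequences are RefSeq's for GRCm38.p6. Alternatives changed the filter on dim genes, the probe row, the samples in the fit, the centring or quantile normalization, array weights, the variance prior and a replicate block, and left out each array in turn.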

Additional observations from a re-analysis of the deposited data

Results flagged for a closer look

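The named genes below differed between the WL and HFD contrasts by the interaction test (WL minus HFD, limma adjusted p under 0.05 over all genes). Of the mast cell list, Tph1 differed by -4.82, Tpsab1 by -4.45, Mrgprb1 by -3.88, Hdc by -3.60 and Ms4a2 by -2.57. For these genes, and for Ctsg, Slc6a4 and Igkv4-59 below, both HFD sorts had means below the lowest array median. Among the other granule and amine genes, Gzmb differed by -3.90, Ctsg by -3.44, Slc18a2 by -3.32 and Slc6a4 by -2.98. Fosl2 differed by -2.67 and the immunoglobulin segment Igkv4-59 by -5.62. In the other direction were Lgi2 at 3.02, Rad1 at 2.48 and Gpatch2l at 1.66. Klrb1b differed by -2.85, with a WL difference of -0.36 and an HFD difference of 2.49. The HFD CD11c- arrays for Klrb1b and the HFD CD11c+ arrays for Lgi2 lay below the lowest array median. The sizes of these HFD differences and interactions are thus not reliably measured.

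Each value was recomputed with each of the 11 WL and HFD macrophage arrays left out in turn. Tph1, Tpsab1, Hdc, Ctsg, Slc6a4, Slc18a2 and Fosl2 passed in all 11, with a highest adjusted p of 0.0389 for Fosl2 and 0.0303 for Hdc. Mrgprb1 passed in 9, Ms4a2 and Igkv4-59 in 5, Lgi2 in 3, Rad1, Gpatch2l and Klrb1b in 2 and Gzmb in 1, with adjusted p up to 0.157 for Klrb1b and 0.149 for Gzmb. No group held 4 or more arrays, so a single array far from its group could not be tested for.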

How the results depend on the processing

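The 208 WL calls became 99 with macrophage arrays alone, 1 with the 5 WL arrays alone and 43 with array weights, and ran from 153 to 296 with 1 WL array left out. Of the 208, 81 were also called with macrophage arrays alone. The single HFD call became 0 with macrophage arrays alone, with the 6 HFD arrays alone and after a second quantile normalization, 26 with array weights and 2 with a replicate block, and ran from 0 to 3 with 1 array left out, 0 without HFD CD11c+ replicate 1 or HFD CD11c- replicate 1 and 3 without HFD CD11c- replicate 2. The 25 interaction calls became 11 with macrophage arrays alone and 7 with the 11 arrays of both contrasts alone, and ran from 12 to 63, 52 and 63 without WL CD11c- replicates 1 and 2, 16 or fewer without WL CD11c+ replicate 3, any HFD CD11c+ array or HFD CD11c- replicates 2 and 3. The other alternatives kept each total within 1.5 times; the cause of the changes was not tested, beyond the fewer arrays and the unequal weights that these fits use. Centring the array medians gave 72 higher and 107 lower genes in place of 107 and 101, with 179 in all, and a second quantile normalization gave 122 higher and 162 lower, with 284 in all. The replicate block gave 185 WL and 24 interaction calls. Same-numbered WL arrays correlated at 0.03 and -0.05 in their deviations from the group means. The deviations of 2 CD11c- arrays mirror each other, so these values cannot decide whether the arrays were paired. Same-numbered HFD arrays correlated at 0.01, 0.25 and 0.02, and HFD arrays with unlike numbers at -0.19 to 0.19. The numbers were not taken as pairs in the main fit. The Hpgds difference turned to 0.13 with array weights and ran from -0.35 to 0.32 with 1 WL array left out, positive at 0.22 without WL CD11c+ replicate 1 and 0.32 without WL CD11c- replicate 1. That of Klrb1b ran from -0.85 to 0.021, positive without WL CD11c+ replicate 2, and neither gene was called. No other named gene changed sign under the alternatives run. Values below the array median carry no reliable order.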
